A study of Homo sapiens with 8 samples.

Results

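The genes described here are the cadherins, protocadherins and catenins of hCMEC/D3 cells. This established human line derives from endothelium of brain microvessels, was immortalised, and serves as a model of the blood-brain barrier. They were taken from the count table by symbol: the numbered cadherins (CDH), all protocadherins (PCDH), the desmocollins (DSC) and desmogleins (DSG), the alpha, beta and delta catenins (CTNNA, CTNNB and CTNND), plakoglobin (JUP) and plakophilins PKP1 to PKP4. The rule found 111 of the 23346 genes listed, and all 111 are accounted for below. Of these, 57 belong to the 3 protocadherin clusters on chromosome 5, whose rows share exons, so they are described apart from the other 54. The study sequenced polyadenylated RNA from 8 replicates of the line, and the labels give no second group, time point or treatment. They do not say whether the replicates came from separate cultures, so every p-value here measures only the spread between these 8 libraries, which may be technical.

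Classical cadherins are calcium-dependent adhesion proteins that bind the same or a related cadherin on the neighbouring cell. Their cytoplasmic tails bind p120 catenin near the membrane and beta-catenin or plakoglobin further along, and alpha-catenin links beta-catenin to actin. Brain endothelial cells are joined by adherens junctions built on VE-cadherin, next to the tight junctions that seal the barrier. Desmosomal cadherins use plakoglobin, plakophilins and desmoplakin to reach intermediate filaments, and are known mainly from epithelium and heart. Clustered protocadherins are best known from neurons, where each cell uses a small choice of isoforms.

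The libraries held 69388544 to 90205244 counts each. Every count was even, so halved counts are called read pairs here. Libraries were put on a common scale as CPM, counts scaled to library size, and a gene was called detected where it reached 1 CPM in all 8. Ratios between genes are tested on RPKM, which also divides by transcript length, while levels ranked by CPM do not allow for length. Where ratios are given on the authors' normalised log2 values, these are not RPKM and form an alternative scale. The libraries differed in how counts depended on transcript length: relative to the mean of all libraries, the slope per doubling of length was -0.21, -0.10 and -0.32 on the log2 scale in replicates 2, 7 and 8, and 0.08 to 0.14 in the other 5. Replicates 2, 7 and 8 also had positive slopes on GC content (0.23, 0.06 and 0.27 on the log2 scale per 10 percentage points of GC), and the other 5 had negative ones. All 9 endothelial markers examined were detected, at a summed level of 1629 to 3309 CPM. Of 7 epithelial markers only KRT19 was detected, and the list summed to 4.22 to 5.53 CPM. Of 5 mural cell markers 3 were detected (38.0 to 66.0 CPM summed). None of 4 astrocyte markers was detected (0.731 to 1.10 CPM summed, AQP4 without a count), and of 4 neuronal markers only SYT1 was (2.37 to 5.69 CPM summed). In bulk RNA, fewer cells of a type and less RNA per cell cannot be told apart.

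Few of these genes passed the detection limit. Of the 111 members 21 were detected, or 18.9%, against 51.3% of all listed genes. The detected share was 29.6% for the 54 unclustered members (16 genes), 17.4% for the PCDHG rows (4 of 23), 5.26% for the PCDHB rows (1 of 19) and 0 of 15 for the PCDHA rows. The mean level was under 1 CPM for 83 members and under 0.1 CPM for 58. No read pair was counted in any library for 13 members: CDH7, CDH18, CTNNA3, DSC2, DSG1, DSG4, 4 PCDHA rows and 3 PCDHB rows. With 34694272 to 45102622 read pairs a library, a gene without a count could still lie at up to 0.0665 CPM in the deepest and 0.0880 CPM in the shallowest library, taking 3 read pairs as the limit and counting error only.

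**Figure D1:**
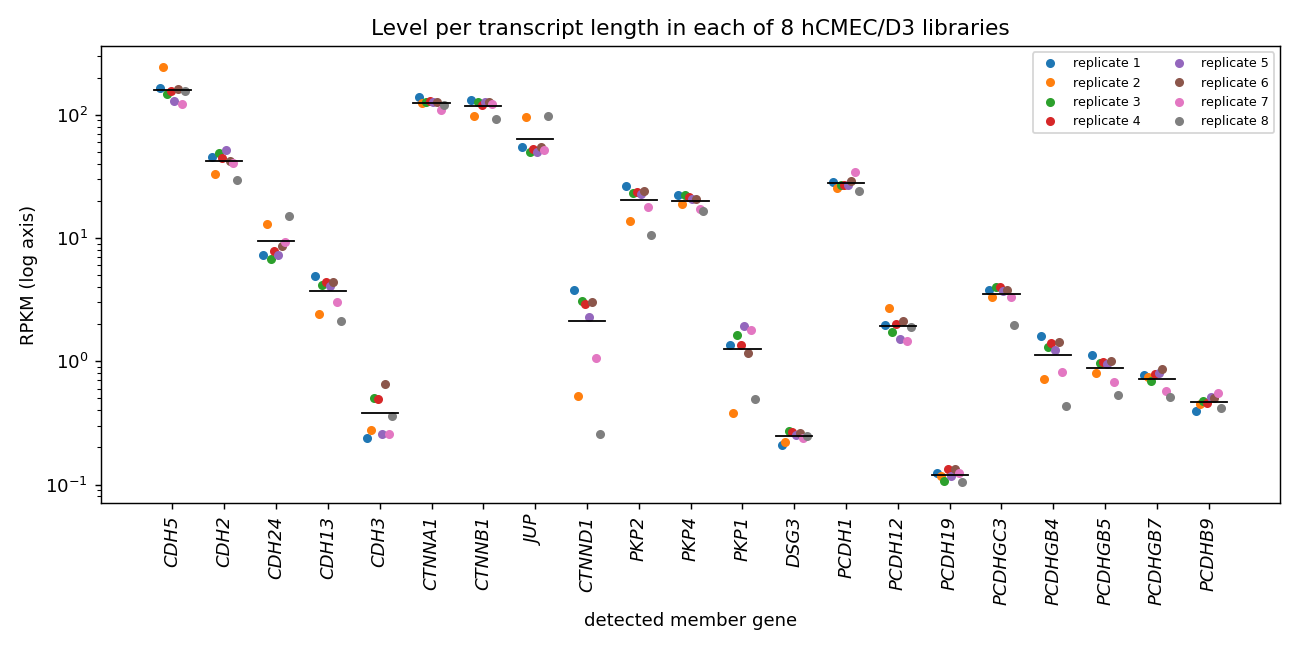
Level of each detected member in each of the 8 libraries, as RPKM on a log axis; points are libraries, coloured by replicate, and the line is the mean. CDH5, CTNNA1 and CTNNB1 lay near or above 100 RPKM, and CTNND1 and PKP1 had the widest spread of the 21 genes.

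VE-cadherin (CDH5; chromosome 16, 66400525 to 66438689 on hg19, 12 exons in the canonical transcript) is the endothelial adherens junction cadherin, and it led the family. Its level ran from 122 to 245 RPKM with a median of 156 RPKM. Replicate 2 stood apart at 994 CPM, since the other 7 libraries lay between 493 and 666 CPM. N-cadherin (CDH2; chromosome 18, 25530930 to 25757445), which endothelial cells hold mostly outside the junction and use towards pericytes, ran from 29.4 to 51.3 RPKM with a median of 43.2 RPKM. The ranges of the 2 genes did not overlap. Within libraries CDH5 exceeded CDH2 by 1.92 ± 0.50 on the log2 RPKM scale (SD, n = 8) and did so in 8 of 8. The two-sided exact permutation test, which flips the signs of the 8 ratios, gave p = 0.00781, the smallest that 8 libraries allow, and 0.0102 after adjustment over 13 pairs. The gap was narrowest in replicate 5 (1.33) and widest in replicate 2 (2.90), where CDH5 was at its highest and CDH2 was 132 CPM.

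CDH24 and T-cadherin (CDH13) were the other well-covered cadherins. CDH24 (chromosome 14, 23516270 to 23526747), a type II classical cadherin, ran from 23.0 to 51.5 CPM with a median of 28.2 CPM. CDH13 (chromosome 16, 82660399 to 83830215), which has no cytoplasmic tail and is anchored in the membrane by a lipid, ran from 16.7 to 38.9 CPM with a median of 32.3 CPM. The order of the libraries differed between them: CDH24 was highest in replicates 8 (51.5 CPM) and 2 (44.7 CPM), where CDH13 was lowest (16.7 and 19.2 CPM). The canonical transcript of CDH24 has 3415 bases and 64.1% GC, and that of CDH13 has 7876 bases and 42.9% GC. Both library order and these properties are given as measured; whether the length and GC slopes of the libraries set these levels was not tested gene by gene. Per length, CDH24 averaged 9.41 ± 3.05 RPKM and CDH13 3.69 ± 1.03 RPKM (SD, n = 8). CDH5 exceeded CDH13 by 5.42 ± 0.60 on the log2 RPKM scale in 8 of 8 libraries (exact p = 0.00781, adjusted 0.0102), and by 4.56 on the authors' values.

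P-cadherin (CDH3), found in many epithelia, was the remaining detected cadherin, at 1.06 to 2.91 CPM with a median of 1.42 CPM. The other classical cadherins were lower still. R-cadherin (CDH4) averaged 1.19 ± 0.191 CPM but fell to 0.910 CPM in its lowest library, and so was not detected by the rule. Cadherin-11 (CDH11), a mesenchymal cadherin, averaged 0.481 ± 0.0705 CPM. E-cadherin (CDH1), the main epithelial cadherin, averaged 0.309 ± 0.106 CPM, with 0.189 to 0.496 CPM over the libraries (SD, n = 8). CDH23, a long atypical cadherin of the inner ear, averaged 1.02 ± 0.284 CPM, but its locus overlaps those of C10orf54 and C10orf105 on the opposite strand, and without a stated strand setting these reads cannot be told apart. CDH2 exceeded CDH11 by 7.91 ± 0.26 and CDH4 by 7.22 ± 0.34 on the log2 RPKM scale, in 8 of 8 libraries each (exact p = 0.00781, adjusted 0.0102 for both). These sizes depend on the 0.1 RPKM added before taking logs, because CDH11 (0.0716 RPKM) and CDH4 (0.178 RPKM) lay close to it. Over the alternatives they ran from 5.30 to 8.99 for CDH11 and from 5.16 to 7.79 for CDH4.

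Over the 23 numbered cadherins the summed level was 216 ± 34.9 RPKM. CDH5 held 73.5 ± 4.99% of it, from 67.0% in replicate 5 to 83.3% in replicate 2. CDH2 held 19.9 ± 5.03%, CDH24 4.39 ± 1.39% and CDH13 1.75 ± 0.528% (SD, n = 8). The order CDH5, CDH2, CDH24, CDH13 was the same in each of the 8 libraries, and the share of CDH24 in replicate 8 (7.40%) was still below the lowest share of CDH2 (11.2%).

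Of the catenins, CTNNA1 and CTNNB1 had the highest levels. Alpha-E-catenin (CTNNA1; chromosome 5, 138089107 to 138270723) averaged 125 ± 8.27 RPKM and beta-catenin (CTNNB1; chromosome 3, 41240942 to 41281939) 118 ± 14.5 RPKM (SD, n = 8). CTNNA1 had the steadiest level of the detected members, 408 to 518 CPM, a coefficient of variation of 6.61%. CTNNB1 was lowest in replicates 8 (338 CPM) and 2 (358 CPM) and lay at 436 to 480 CPM in the other 6. CTNNA1 exceeded CTNNB1 in 6 of 8 libraries by 0.10 ± 0.18 on the log2 RPKM scale, a difference that did not pass the test (exact p = 0.211, adjusted 0.229). With all annotated exons merged as the length of each gene the difference was 0.55 (adjusted exact p = 0.00923), and on the authors' normalised values it was 0.15 (adjusted exact p = 0.0344). CTNNA1 was the higher on average under each of the 13 alternatives tried, by 0.06 to 0.55, and whether the difference passed the test changed with the length and scale used. CDH5 exceeded CTNNB1 by 0.42 ± 0.43, in 8 of 8 libraries, though only by 0.00348 in the closest one (exact p = 0.00781, adjusted 0.0102). The difference was 1.54 with all exons merged, and on the authors' values it was 0.45 ± 0.28 and positive in 7 of 8 libraries. The alpha-catenins known from neurons (CTNNA2) and from heart (CTNNA3) were near or at no count, with 2 read pairs over the 8 libraries and none.

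Plakoglobin (JUP; chromosome 17, 39910859 to 39942964), the close relative of beta-catenin that works in both adherens junctions and desmosomes, fell into 2 sets of libraries. Replicates 2 and 8 had 337 and 343 CPM, and it stood at 174 to 191 CPM in the other 6, with no library between. Its share of the summed RPKM of CTNNB1 and JUP was 49.6% and 51.4% in those libraries and 28.0% to 30.5% elsewhere. The sum itself changed little, 181 ± 8.09 RPKM with a range of 172 to 194 RPKM. Whether the levels of the 2 genes are linked was not tested. The split was not particular to JUP, since CDH24 was also highest in replicates 2 and 8. By the edgeR goodness-of-fit test described below, the spread of JUP did not exceed the variation trend (adjusted p = 0.590). It did so in 1 of the 14 alternatives tried. CTNNB1 exceeded JUP by 0.94 ± 0.60 on the log2 RPKM scale in 7 of 8 libraries, the exception being replicate 8 (-0.0826; exact p = 0.0234, adjusted 0.0277). With all exons merged the difference turned to -0.25 (adjusted exact p = 0.492). Leaving out 1 library at a time gave 0.88 to 1.09 and adjusted exact p of 0.0185 to 0.0554, missing the threshold without replicate 1, 3, 4, 5, 6 or 7. Fewer libraries give fewer sign patterns, which raises the smallest p the permutation test can give. For CDH5 over CDH2 the adjusted exact p also rose, from 0.0102 to between 0.0185 and 0.0203. On the authors' values, which adjust for length and GC, JUP was also highest in replicates 2 (8.76) and 8 (8.70) against 8.11 to 8.43 in the other 6, and CTNNB1 exceeded JUP in 8 of 8 libraries by 0.87 ± 0.27.

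**Figure D2:**
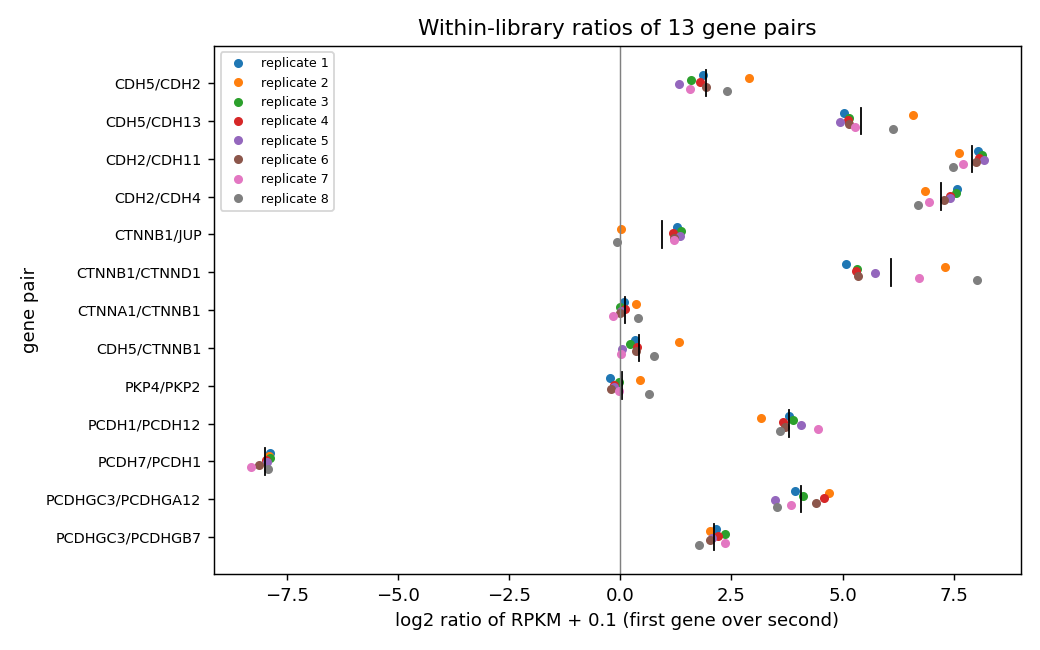
Log2 ratio of RPKM + 0.1 of the first gene over the second for 13 pairs; points are the 8 libraries, black lines their means, and the grey line marks equal levels. The ratio of CTNNB1 to JUP lay near 0 in replicates 2 and 8, while the ratio of CDH5 to CDH2 was above 0 in 8 of 8 libraries.

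p120 catenin (CTNND1; chromosome 11, 57529234 to 57586652, 21 exons), which holds cadherins at the cell surface, was listed at a low and uneven level. It reached 25.2 CPM in replicate 1 and 15.2 to 20.7 CPM in replicates 3 to 6. Replicates 7, 2 and 8 held 7.04, 3.46 and 1.70 CPM. The 3 low libraries are those with a negative slope on transcript length, and the highest library was 14.8-fold above the lowest. On the authors' length- and GC-adjusted log2 values these libraries were again the lowest, at 3.10, 2.27 and 1.56 in replicates 7, 2 and 8 against 3.85 to 4.47 in the other 5. CTNNB1 exceeded CTNND1 by 6.10 ± 1.10 on the log2 RPKM scale in 8 of 8 libraries (exact p = 0.00781, adjusted 0.0102), and by 5.47 with all exons merged. The row is uncertain, because the gene lies wholly within a read-through gene listed separately as TMX2-CTNND1 (chromosome 11, 57479995 to 57586652; 0.0236 CPM), and the counting options for reads that fit both are not given in the sources used here. Genes nested in this way ranged widely. EIF4A1, a translation factor used by all cells that lies within the listed SENP3-EIF4A1, had no count in any library. FKBP1A, within FKBP1A-SDCBP2, averaged 691 CPM, and TMX2, at the other end of TMX2-CTNND1, stood at 85.4 to 117 CPM. In 192 pairings of a gene with a listed read-through gene that holds it and is named for it, the gene was detected in 52.1%. That is close to the share of all genes, but CTNND1 was itself detected, so the share does not bear on a lowered level. Whether nesting lowered the CTNND1 row was not tested. The neuronal relative CTNND2 had 10 read pairs over the 8 libraries, a mean of 0.0325 CPM.

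The plakophilins, armadillo proteins of the desmosomal plaque that are related to p120 catenin, were present without a matching level of desmosomal cadherins. PKP2 (chromosome 12, 32943680 to 33049780) was lowest in replicates 8 (45.0 CPM) and 2 (58.3 CPM) and highest in replicate 1 (111 CPM), with a median of 96.7 CPM. PKP4 (chromosome 2, 159313476 to 159537940), also known as p0071 and found in adherens junctions too, ran from 76.6 to 103 CPM with a median of 94.9 CPM. Per length PKP2 ran from 10.6 to 26.2 RPKM and PKP4, within that range, from 16.7 to 22.3 RPKM. PKP4 exceeded PKP2 in only 2 of 8 libraries, replicates 2 and 8, and the mean difference of 0.03 ± 0.33 did not pass the test (exact p = 0.75, adjusted 0.75). With all exons merged PKP4 was higher by 0.26 (adjusted exact p = 0.0169). PKP3 averaged 1.35 ± 0.349 CPM and fell to 0.910 CPM in its lowest library, so it was not detected by the rule.

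The 7 desmosomal cadherins together reached 0.536 ± 0.0694 RPKM, against 40.2 ± 7.55 RPKM for PKP2 and PKP4 together (SD, n = 8). Desmoglein-3 (DSG3; chromosome 18, 29027732 to 29058665) was the only one detected, at 1.17 to 1.52 CPM and 0.246 ± 0.0215 RPKM. Desmocollin-3 (DSC3) averaged 1.02 ± 0.173 CPM and desmoglein-2 (DSG2), the most widely expressed desmoglein, 0.401 ± 0.193 CPM. The count of DSG2, which is part of the sum above, is uncertain. Its locus overlaps that of the listed LOC100652770, and the counting options are not given in the sources used here. DSC2, DSG1 and DSG4 had no count. The pair DSG2 and DSC2 was not tested because both were under 1 CPM. Plakophilin-1 (PKP1; chromosome 1, 201252580 to 201302121) was detected at 2.04 to 10.3 CPM with a median of 7.23 CPM, and was lowest in replicates 2 (2.04 CPM) and 8 (2.65 CPM), both below 6.19 CPM, the lowest of the other 6.

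In the main setting PKP1 and CTNND1 were the only detected members whose spread between libraries exceeded the trend for genes of their level. By the goodness-of-fit test of edgeR, which sets each gene's spread against the trend of dispersion on level, with Benjamini-Hochberg adjustment over the 11980 detected genes, 2 of the 21 detected members (9.52%) passed, against 4.66% of all detected genes. The adjusted p was 9.76e-11 for CTNND1 and 0.00348 for PKP1. Without replicates 2, 7 and 8, a setting chosen after seeing the data, neither passed (adjusted p = 0.197 for CTNND1 and 0.438 for PKP1), and CDH3 passed instead (1.81e-04). With each library's trend on length and GC removed both passed (adjusted p = 2.93e-16 for CTNND1 and 1.15e-06 for PKP1), and PCDHGB4 passed too (0.0131). PKP1 also missed the threshold without replicate 2 alone (adjusted p = 0.171). Over the 14 alternatives tried CTNND1 passed in 13 and PKP1 in 12. With the DESeq2 trend 8 of the 21 members passed, as did 2811 of the 11980 detected genes. The trend is drawn from these same libraries. Its common coefficient of variation was 24.0% over all 8 and 8.76% without replicates 2, 7 and 8. A gene that does not pass can therefore still differ between these libraries. At an unadjusted p under 0.05 the count was 4 members, CDH3 and PCDHGB4 besides, against 13.1% of all detected genes.

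The median coefficient of variation of CPM was 20.6% for the detected members and 19.2% for all detected genes. Of the 21 detected members 12 had their lowest level in replicate 8 (57.1%), where 31.1% of all detected genes had theirs. On the authors' length- and GC-adjusted values 9 of the 21 were lowest there (42.9%), against 23.5% of all detected genes. Replicate 8 also held the highest CPM of 36.0% of all detected genes, but of only 2 of the 21 members (9.52%), CDH24 and JUP. Their transcripts have 64.1% and 61.5% GC, and whether GC content set these levels was not tested. On the authors' values 4 of the 21 were highest in replicate 8, against 27.5% of all detected genes.

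**Figure D3:**
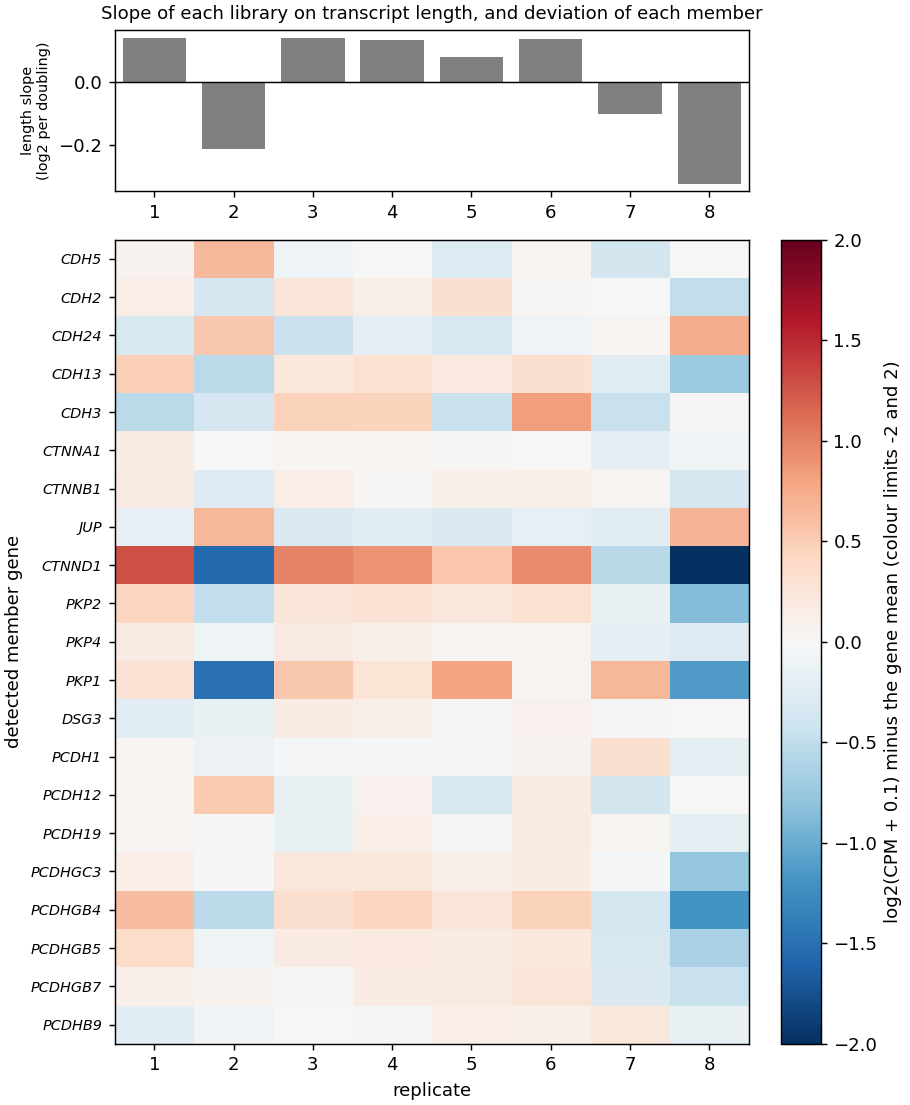
Top, slope of each library's log2 level on transcript length, relative to the mean of libraries; bottom, deviation of each detected member in each library from its own mean, on the log2(CPM + 0.1) scale, with colours limited to -2 and 2. Replicates 2 and 8, with the most negative slopes, hold the lowest values of CTNND1, PKP1, PKP2 and CDH13 and the highest of CDH24 and JUP.

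Among the protocadherins outside the clusters, PCDH1 led. PCDH1 (chromosome 5, 141232673 to 141257944), a delta protocadherin known from airway epithelium, ran from 116 to 166 CPM with a median of 130 CPM, or 27.7 ± 3.11 RPKM. Its highest value, in replicate 7, stood apart from the next at 139 CPM. PCDH12 (chromosome 5, 141324530 to 141338627), known as vascular endothelial cadherin-2, ran from 8.40 to 15.5 CPM with a median of 11.0 CPM, and was highest in replicate 2 as CDH5 was. PCDH1 exceeded PCDH12 by 3.79 ± 0.37 on the log2 RPKM scale in 8 of 8 libraries (exact p = 0.00781, adjusted 0.0102). PCDH19, a delta protocadherin best known from the brain, was just over the detection limit at 1.17 ± 0.106 CPM.

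The other protocadherins outside the clusters each averaged under 1 CPM. PCDH7 had 22 read pairs over the 8 libraries, a mean of 0.0732 CPM, and lay below PCDH1 in 8 of 8 libraries, by a difference of -8.00 ± 0.15 on the log2(RPKM + 0.1) scale (exact p = 0.00781, adjusted 0.0102). The added 0.1 sets that size, which was -4.83 with 1 added and -10.63 with 0.01. PCDH11X averaged 0.549 ± 0.0825 CPM and PCDH8 0.286 ± 0.112 CPM, and PCDH15 had 2 read pairs in all. PCDH11X has a near-identical copy elsewhere in the genome, so its count is uncertain.

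The clustered protocadherins lie in tandem on chromosome 5 as the PCDHA, PCDHB and PCDHG arrays. In PCDHA and PCDHG each variable exon has its own promoter and is spliced to constant exons shared by the array, while each PCDHB gene is a single exon. Most of their promoters carry a conserved element with the core CGCT, and the factor CTCF is known to bind at these promoters. For PCDHB and PCDHG, promoters of rows that led in counts are shown beside those of rows with few or none, and for PCDHA 2 rows with few or none, to show how alike the element's surroundings are. They come from RefSeq windows on GRCh38.p14, from 250 bases before to 50 after each gene's start, and 47 of the 57 clustered rows matched one. Capitals mark, for each array, the word of 8 bases holding CGCT that most of its windows share, a choice made from these promoters: GTGGCGCT in PCDHB, GCCGCTGT in PCDHG and ATGTCGCT in PCDHA. All lie on the plus strand of chromosome 5.
PCDHB9, chr5:141187066-141187113: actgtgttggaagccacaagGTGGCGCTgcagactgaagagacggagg
PCDHB16, chr5:141182302-141182349: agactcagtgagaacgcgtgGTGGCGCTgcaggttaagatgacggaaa
PCDHB3, chr5:141100385-141100432: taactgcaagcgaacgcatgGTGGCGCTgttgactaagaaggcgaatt
PCDHGC3, chr5:141475874-141475921: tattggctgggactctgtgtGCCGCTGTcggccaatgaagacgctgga
PCDHGB4, chr5:141387611-141387658: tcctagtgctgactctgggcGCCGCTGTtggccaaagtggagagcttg
PCDHGB5, chr5:141397857-141397904: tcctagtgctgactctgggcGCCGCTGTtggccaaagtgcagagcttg
PCDHGA7, chr5:141382643-141382690: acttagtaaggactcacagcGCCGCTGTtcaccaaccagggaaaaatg
PCDHA1, chr5:140786078-140786125: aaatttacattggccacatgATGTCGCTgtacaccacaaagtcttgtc
PCDHA8, chr5:140841122-140841169: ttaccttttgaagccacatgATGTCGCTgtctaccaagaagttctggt

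Searched on both strands, GTGGCGCT was in 13 of 14 PCDHB windows and in 1.15% of all 35116 RefSeq windows. GCCGCTGT was in 11 of 20 PCDHG windows and 1.63% of all, and ATGTCGCT in 9 of 13 PCDHA windows and 0.234% of all. None of these words was in a window of another of the 3 arrays. The core CGCT, which each word contains, was in 12 of 13 PCDHA, 14 of 14 PCDHB and 20 of 20 PCDHG windows, but also in 70.0% of all windows. Rows with and without counts both carried the words: PCDHB3 and PCDHA8 have them and had no count in any library, and PCDHGA7 has GCCGCTGT and had 11 read pairs over the 8 libraries. PCDHA9, which held most PCDHA counts, had no CGCT in its window. Of the 4 detected PCDHG rows, PCDHGC3, PCDHGB4 and PCDHGB5 carry GCCGCTGT and PCDHGB7 does not.

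The clusters were low in sum and each was led by 1 row. The 57 rows together reached 26.1 ± 4.20 CPM, of which PCDHG gave 21.7 ± 4.03 CPM, PCDHB 3.20 ± 0.243 CPM and PCDHA 1.23 ± 0.198 CPM (SD, n = 8). PCDHG was lowest in replicate 8 (13.4 CPM) and highest in replicate 1 (25.8 CPM). How reads in the shared constant exons were assigned is not given in the sources used here, so the counts of PCDHA and PCDHG rows may leave out or split such reads.

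In the PCDHG array the leading row was PCDHGC3 (chromosome 5, 140855569 to 140892546 on hg19), a C-type isoform at the downstream end of the array, row 21 of 23 in order of start. It ran from 5.09 CPM in replicate 8, apart from the rest, to 10.3 CPM, with a median of 9.63 CPM. It held 41.4 ± 2.64% of the counts of the PCDHG rows, between 37.7% and 44.4%. PCDHGB4, PCDHGB5 and PCDHGB7, at places 11, 13 and 17, held 12.9 ± 3.00%, 10.4 ± 0.584% and 8.70 ± 0.918%. These 4 detected rows held 73.4 ± 3.42% of the array's counts.

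PCDHGB4 was 4.17 CPM in replicate 1 and 3.21 to 3.72 CPM in replicates 3 to 6, but 2.09, 1.84 and 1.11 CPM in replicates 7, 2 and 8, the libraries with a negative length slope. Its share of the array's counts was 8.29% to 10.9% in those libraries and 13.7% to 16.2% in the other 5. PCDHGB5, next but one in the array, averaged 2.27 ± 0.498 CPM. PCDHGA11 (1.37 ± 0.200 CPM) and PCDHGA8 (1.24 ± 0.230 CPM; named after its value was seen) averaged above 1 CPM without reaching it in every library. PCDHGC3 exceeded PCDHGB7 by 2.11 ± 0.20 and PCDHGA12 by 4.07 ± 0.46 on the log2 RPKM scale, in 8 of 8 libraries each (exact p = 0.00781, adjusted 0.0102), with RPKM taken over bases that no other listed row of the cluster has. PCDHGA12 averaged 0.117 RPKM, close to the 0.1 added, and its difference was 1.99 with 1 added and 4.92 with 0.01. For PCDHGB7 the difference was 1.37 with 1 added.

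In the PCDHB array PCDHB9 (chromosome 5, 140566893 to 140571111) was the only row detected, at 1.73 to 2.41 CPM with a median of 2.04 CPM. It held 64.4 ± 3.24% of the array's counts, with 57.3% in replicate 1 standing apart from 63.5% to 68.1% in the other 7. Its neighbour PCDHB16 came next, at 0.320 ± 0.109 CPM and 9.94% of the counts. The PCDHB genes are close in sequence to one another, so reads that fit several of them make these shares uncertain. In the PCDHA array PCDHA9 (chromosome 5, 140227357 to 140391929), at place 9 of 15, held 89.0 ± 3.48% of the counts, at 1.09 ± 0.179 CPM. Its lowest library was 0.939 CPM, just under the detection limit, and the other 14 rows each averaged under 0.1 CPM.

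**Figure D4:**
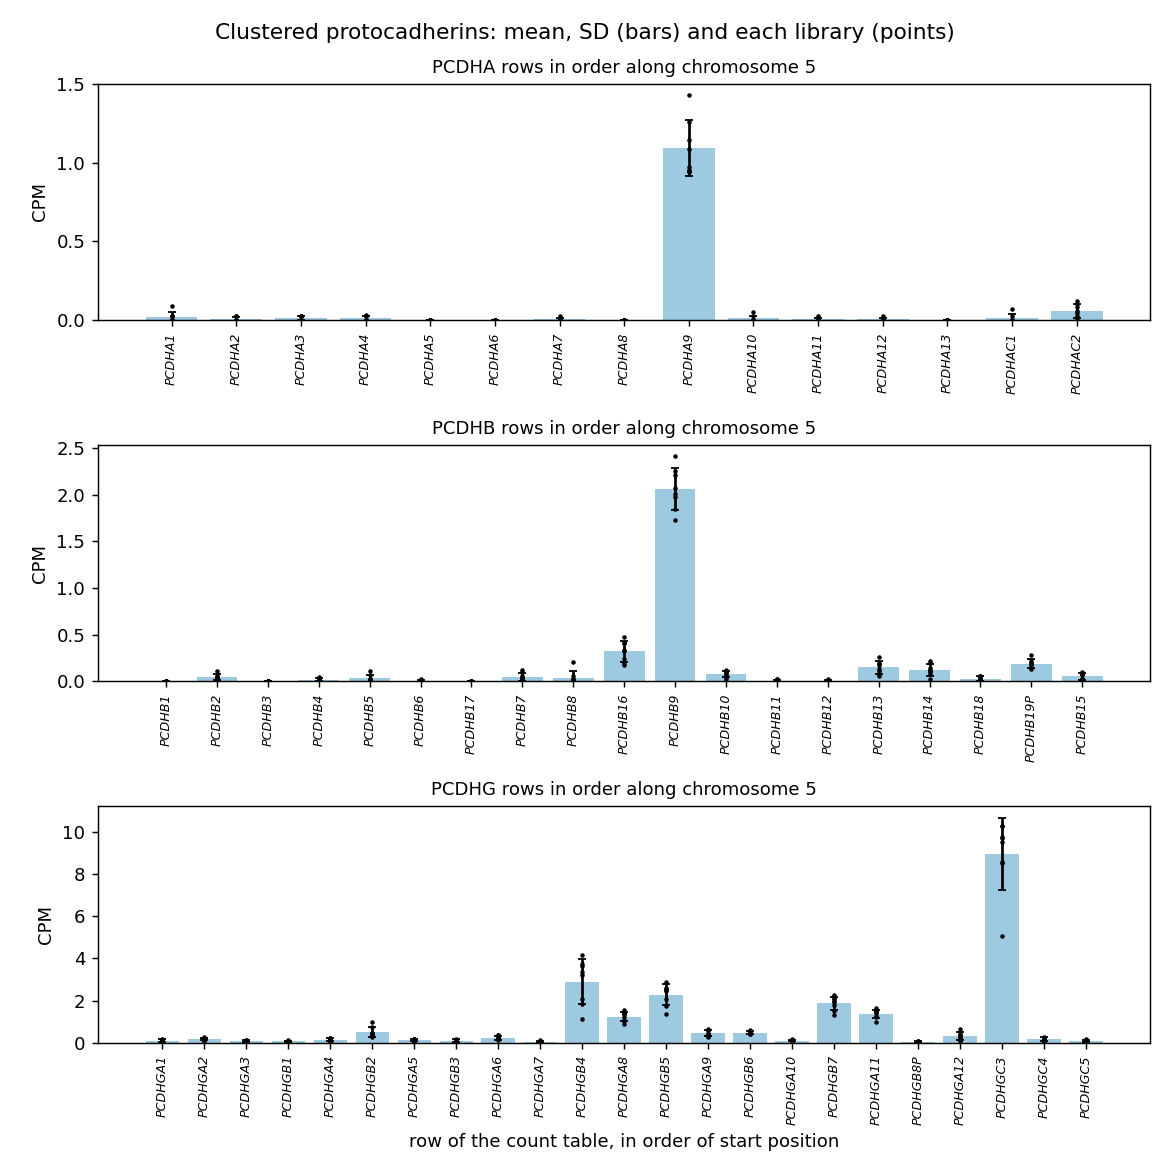
Mean CPM (bars), SD (error bars) and the 8 libraries (points) for each row of the PCDHA, PCDHB and PCDHG arrays, in order of start along chromosome 5; the 3 panels have different scales. A single row led each array: PCDHA9, PCDHB9 and PCDHGC3.

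Of 52 further genes of these junctions, of the wider cadherin superfamily and of protocadherin cluster control, 42 were detected (80.8%, against 51.3% of all listed genes). The list was chosen with earlier results of these data known, so the higher share is no test of these genes. The 5 with the highest CPM were the actin cross-linker ACTN4 (770 ± 71.2 CPM), the scaffold IQGAP1 (581 ± 196 CPM), vinculin (VCL, 490 ± 114 CPM), which binds alpha-catenin, and the cohesin subunits RAD21 (409 ± 67.8 CPM) and SMC1A (361 ± 112 CPM). Per length their order was another: ACTN4 154, RAD21 112, VCL 89.2, IQGAP1 80.6 and SMC1A 37.1 RPKM. VE-PTP (PTPRB), the endothelial phosphatase that binds VE-cadherin, was at 79.1 ± 26.3 CPM and CTCF at 78.0 ± 7.43 CPM. Desmoplakin (DSP), which ties the plaque to intermediate filaments, ran from 5.87 CPM in replicate 8 to 43.6 CPM in replicate 1 with a median of 34.0 CPM. By the edgeR goodness-of-fit test 4 of the 42 (9.52%, against 4.66% of all detected genes) exceeded the variation trend: DSP (adjusted p = 5.09e-06), the giant cadherin FAT4 (1.16e-05; 52.7 to 251 CPM), the cadherin-cleaving protease ADAM10 (0.00881; 50.3 to 191 CPM) and SMCHD1 (0.0141; 80.9 to 271 CPM), a chromatin protein that acts on the protocadherin clusters. All 4 were lowest in replicate 8 and next lowest in replicate 2, as CTNND1 was. So were IQGAP1, VCL, RAD21 and SMC1A, which did not exceed the trend, while ACTN4 was lowest in replicate 3 (691 CPM). The canonical transcripts of DSP, FAT4, ADAM10 and SMCHD1 have 9697, 17151, 11158 and 8833 bases. Replicates 8 and 2 had the most negative length slopes, and whether length set these levels was not tested.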

How the data were processed

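Polyadenylated RNA from 8 replicates of hCMEC/D3 was sequenced from TruSeq v2 libraries, per the labels' protocols. The submitters' processing notes name CASAVA 1.9, TopHat2 2.0.6, HTSeq and hg19; the counting options and annotation are not given in the sources used here. The authors deposited raw counts per gene and, per the file headers, conditional quantile normalised (CQN) values, which the values show to be on a log2 scale; 13962 genes have one.

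Counts were scaled with TMM in edgeR 4.0.16 (R 4.3.3). Coordinates are the file's, with 1 added to each start. Lengths are of canonical transcripts of GENCODE 44 lifted to GRCh37 (21456 genes matched), for clustered protocadherins only bases that no other listed row of the cluster has. Variation was tested with an intercept-only fit; pair ratios used log2(RPKM + 0.1) and all 256 sign patterns. Alternatives included DESeq2 1.42.0. The fits were tested on simulated data. The members and lists were chosen with earlier results of these data known. Genes named are the detected members, the highest undetected one of each subfamily, the genes of the pairs, and, of the further genes, the 5 highest, those above the trend and a few set ones.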

Additional observations from a re-analysis of the deposited data

Results flagged for a closer look

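Of 58 sets of 8 library values checked, 5 had 1 library apart from the rest, meaning that its gap to the nearest other library, as a share of the whole range, exceeded Dixon's 95% critical value for 8 values. Chance alone flags about 1 set in 20. CDH5 was high in replicate 2 (994 CPM against 666 CPM in the next library, a gap of 0.655 of the range). PCDH1 and CDH11 were high in replicate 7 (166 against 139 CPM, 0.539; and 0.633 against 0.518 CPM, also 0.539). PCDHGC3 was low in replicate 8 (5.09 against 8.55 CPM, 0.661). The share of PCDHB9 among PCDHB counts was low in replicate 1 (57.3% against 63.5%, 0.573).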

How the results depend on the processing

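No paired analysis was possible because the study has 1 group, so no replicate number recurs across groups. The 16 unclustered members detected became 27 with a minimum of 10 counts in all libraries. The 5 clustered rows detected became 8 with 1 CPM in at least 4 libraries or 0.5 CPM in all, and 14 with a minimum of 10 counts; looser rules pass more genes by construction. The 2 members above the variation trend became 8 of 21 with the DESeq2 trend (2811 of all detected genes against 558), 1 to 2 with 1 library left out, and 1 without replicates 2, 7 and 8. CTNNA1 over CTNNB1 moved from 0.10 to 0.15 on the authors' values and 0.55 with all exons merged, CTNNB1 over JUP from 0.94 to -0.25 with all exons merged and PKP4 over PKP2 from 0.03 to 0.26; the cause was not tested. Leaving out 1 library gave 0.88 to 1.09 for CTNNB1 over JUP and -0.052 to 0.073 for PKP4 over PKP2, with -0.024 without replicate 2 and -0.052 without replicate 8. The PCDHB9 share was 59.3% by RPKM. The other 10 ratios kept their direction and their side of the threshold under every alternative that gave a value. Depth limits members under about 0.1 CPM, where a library holds about 3 read pairs.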
